A study of Gallus gallus with 6 samples.

Results

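The comparison of MEK1ca with the control vector pCIG was analysed over all genes of the deposited count table. The members are therefore the genes themselves: 13582 genes had enough counts to be tested, of 17108 in the table. MEK1ca is a constitutively active form of MEK1, the kinase that phosphorylates ERK1 and ERK2. The data were RNA-Seq counts from chicken embryo neural tube cells sorted for GFP. The question of this comparison was which transcripts change in neural tube cells when the ERK pathway is switched on by MEK1ca alone.

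Embryos were electroporated in ovo on both sides of the neural tube at stage HH 11, and the GFP-expressing region was taken 18 h later. The control condition received pCIG at 2 µg/µL, and the MEK1ca condition received 1 µg/µL of pCIG-MEK1ca with 1 µg/µL of empty pCIG, so that both conditions carried the GFP vector and the same total of DNA. Each condition had 2 libraries, each from a pool of embryos. In the fit, 2 further libraries, with MEK1ca and HoxB8 plasmids at 1 µg/µL each, helped to estimate the spread between replicates. They also entered the choice of genes tested and the scaling of the libraries, so that some genes with few counts in pCIG and MEK1ca were tested. The vector drives expression from a ubiquitous promoter and marks cells with nuclear GFP, the sort kept GFP-positive living cells, and every value averages the transfected cells of 1 pool. As in any bulk sample, fewer cells of a type and less RNA per cell cannot be told apart.

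As background, growth factor receptors such as those for FGF activate RAS, which activates RAF kinases, then MEK, then ERK. Active ERK phosphorylates transcription factors, and immediate early genes are the first to respond, followed by later targets that include inhibitors of the pathway itself. In the caudal neural tube, FGF and ERK activity is high near the tail end of the embryo and keeps cells in a progenitor state. The table identifies genes by Ensembl identifier only without symbols, and nothing else at hand paired the 2 kinds of name. The levels of MEK1, of known ERK targets and of markers of the neural tube and other cell types were therefore not looked up. Genes are described here by level, size of change, position and length.

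Total counts were 77004159 and 79064166 in the pCIG libraries and 63637195 and 76997561 in the MEK1ca libraries. MEK1ca replicate 2 stood apart in its small counts. Even values made up 99.4% of its counts between 1 and 10 (51.8% to 57.0% elsewhere) and 82.5% of those above 100 (49.7% to 50.7% elsewhere). Results are therefore also given without this library or with its counts halved. No gene of the mitochondrial genome (37 genes), of the linkage groups not assigned to a chromosome (64 genes) or of unplaced contigs (1128 genes) had a count in any of the 6 libraries. The values thus cover chromosomes 1 to 28, Z and W.

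MEK1ca deregulated 836 of 13582 genes (6.16%) at a threshold of 0.01 on the adjusted p (edgeR's quasi-likelihood test, adjusted by Benjamini and Hochberg's method over all genes tested). Of these, 578 were upregulated (4.26%) and 258 were downregulated (1.90%). For each of the 836 genes, both MEK1ca libraries lay on the same side of both pCIG libraries in TPM (the level scaled for exonic length and for the total of the library). Over all genes tested, both MEK1ca libraries lay above both pCIG libraries in 30.2% and below both in 27.9%. The median log2 fold change over all genes tested was -0.01. With 2 libraries a condition, the smallest two-sided p of an exact permutation test on 1 gene is 0.333, and the calls rest on the spread pooled over genes.

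The counts of calls differed in fits without 1 library. Each such fit leaves 1 library in a condition, and the part of this in the counts was not tested. Without pCIG replicate 1 there were 329 upregulated and 88 downregulated genes, and without pCIG replicate 2 there were 262 and 67. Without MEK1ca replicate 1 there were 411 and 92, and without MEK1ca replicate 2 there were 559 and 253. Halving the counts of MEK1ca replicate 2 gave 585 and 260. The genes called in the full fit and in each of these 4 fits without 1 library numbered 238 upregulated and 44 downregulated, with median log2 fold changes of 1.98 and -1.05. DESeq2 in place of edgeR called 926 upregulated and 621 downregulated genes, which held 577 of the 578 and all 258 of the genes above.

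Rises were larger than falls. The median log2 fold change of the 578 upregulated genes was 1.31, with the middle 50% of genes between 0.86 and 2.27. That of the 258 downregulated genes was -0.80, with the middle 50% between -1.07 and -0.62. At least a 2-fold change was reached by 385 upregulated genes (66.6%) and by 80 downregulated genes (31.0%). At least a 4-fold change was reached by 167 upregulated genes (28.9%) and by none of the downregulated genes. In this full fit the strongest downregulated gene had a log2 fold change of -1.93, and the smallest changes called were 0.36 and -0.37. The absence of 4-fold falls did not hold in the fits with 1 MEK1ca library. Without MEK1ca replicate 2, the downregulated genes ENSGALG00000005413 and ENSGALG00000005975 had log2 fold changes of -2.34 and -2.25. Without MEK1ca replicate 1 these were -1.39 and -1.41, but another gene fell from at least 2 TPM to under 0.5 TPM.

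Very large apparent falls existed but were not called. Log2 fold changes of -2 or below were fitted in 112 genes, of which none passed edgeR's quasi-likelihood test after adjustment, 60 had an unadjusted p under 0.05 and DESeq2 called 9. These genes had a median of 5.13 counts per library and a median level of 0.0732 TPM. In the other direction, 162 genes with a fitted change of 2 or more were not called, at a median of 6.63 counts.

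**Figure D1:**
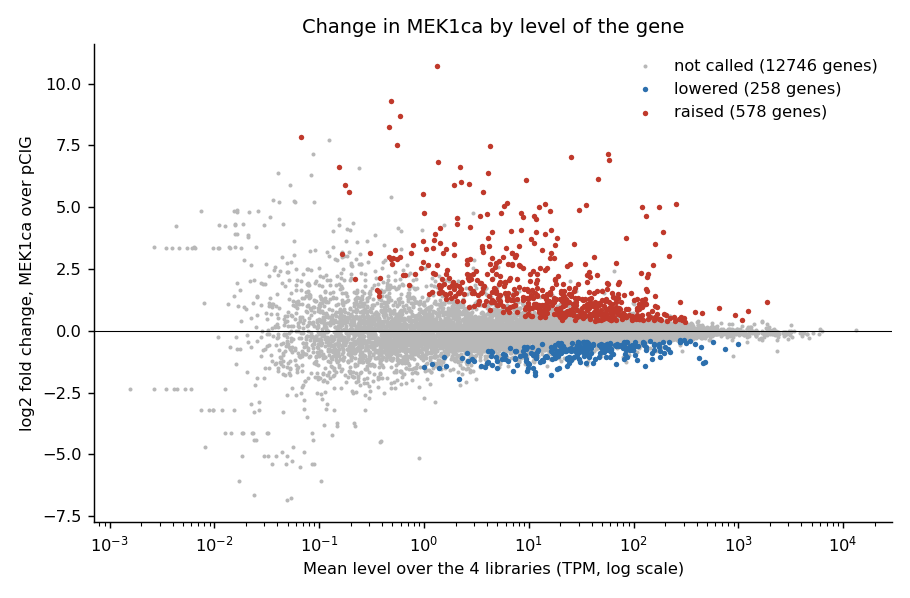
Each point is 1 of 13582 genes tested, with the mean level over the 2 pCIG and 2 MEK1ca libraries (TPM, log scale) on the horizontal axis and the log2 fold change of MEK1ca over pCIG on the vertical axis. Upregulated genes (red, 578) reached far higher fold changes than downregulated genes (blue, 258), none of which went below -1.93, and the large changes at the lowest levels were mostly not called (grey).

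The transcript mass moved by both groups was of the same order before the change and apart after it. The 578 upregulated genes summed to 1.87% and 1.80% of all TPM in the pCIG libraries and to 3.98% and 3.55% in the MEK1ca libraries. The 258 downregulated genes summed to 2.17% and 2.19% in pCIG and to 1.26% and 1.41% in MEK1ca. Since each of these genes lay on 1 side of both pCIG libraries in both MEK1ca libraries, the sums had to part in this direction, and only their size is informative.

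In the genes called, the 2 MEK1ca pools did not change to the same extent. MEK1ca replicate 1 lay further from the mean of pCIG than replicate 2 in 393 of 578 upregulated genes (68.0%) and in 214 of 258 downregulated genes (82.9%). The same share over all genes tested is not given here, so these shares have no baseline. The median difference from pCIG, on the scale of log2(TPM + 0.5), was 1.24 in replicate 1 and 1.11 in replicate 2 for upregulated genes. For downregulated genes it was -0.85 and -0.69. Replicate 1 is the library with the smaller total of counts and replicate 2 the one with even counts, and the part of either in this gap was not tested.

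Upregulated and downregulated genes differed in their level in pCIG, where the direction of the call itself sets them apart. The median upregulated gene was at 8.96 TPM in pCIG and 24.4 TPM in MEK1ca, and the median downregulated gene went from 38.7 TPM to 23.3 TPM. By the higher condition of each group, the medians were closer, at 24.4 and 38.7 TPM. Of the upregulated genes, 113 were under 1 TPM in pCIG and 19 were still under 1 TPM in MEK1ca. No downregulated gene was under 1 TPM in pCIG, and 5 were in MEK1ca. At the other end, upregulated genes at 100 TPM or more rose from 33 to 92 in number, and downregulated genes at this level went from 58 to 34. The direction of both shifts was set by the calls.

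By mean level over the 4 libraries, the share of upregulated genes was highest at middle levels. It was 1.46% of the 2194 genes under 1 TPM, 6.08% of 1893 genes at 1 to 5 TPM and 6.17% of 2640 genes at 5 to 20 TPM. It was 4.12% of 4806 genes at 20 to 100 TPM and 3.42% of 2049 genes at 100 TPM or more. Without 1 library, these shares ranged from 0.41% to 1.28%, 2.85% to 5.55%, 3.14% to 6.02%, 1.79% to 4.22% and 1.46% to 3.12%, each lowest without pCIG replicate 2. The share of downregulated genes was 0% under 1 TPM, where 158 genes had an unadjusted p under 0.05 with a lower level in MEK1ca and DESeq2 called 13. In the higher classes it was 1.16%, 2.39%, 2.70% and 2.10% of genes.

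The size of the change fell with the level. The median log2 fold change of upregulated genes was 2.98 under 1 TPM, 2.04 at 1 to 5 TPM, 1.44 at 5 to 20 TPM, 0.93 at 20 to 100 TPM and 0.72 at 100 TPM or more. Downregulated genes had medians of -1.25, -1.02, -0.73 and -0.60 in the 4 classes from 1 TPM upward. The precision changed alongside: the median standard error of the log2 fold change was 0.67 under 1 TPM and 0.09 at 100 TPM or more, and the smallest rise called was 1.41 in the former and 0.36 in the latter. Small changes could thus be called only at high levels.

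Without regard to the calls, rises of 2-fold or more outnumbered falls in each class of mean level over the 4 libraries, which include MEK1ca, but not in each class of level in pCIG. By the former, under 1 TPM, 17.9% of genes were at least 2-fold higher and 16.1% at least 2-fold lower. The shares were 10.5% and 6.13% at 1 to 5 TPM and 5.91% and 2.35% at 5 to 20 TPM. They were 2.12% and 0.65% at 20 to 100 TPM and 1.37% and 0.39% at 100 TPM or more. By the level in pCIG alone, the shares were 22.4% and 14.2% under 1 TPM, 9.88% and 6.73% at 1 to 5 TPM, 4.46% and 2.59% at 5 to 20 TPM and 1.26% and 0.82% at 20 to 100 TPM. At 100 TPM or more in pCIG the direction turned, with 2 genes at least 2-fold higher and 12 at least 2-fold lower.

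**Figure D2:**
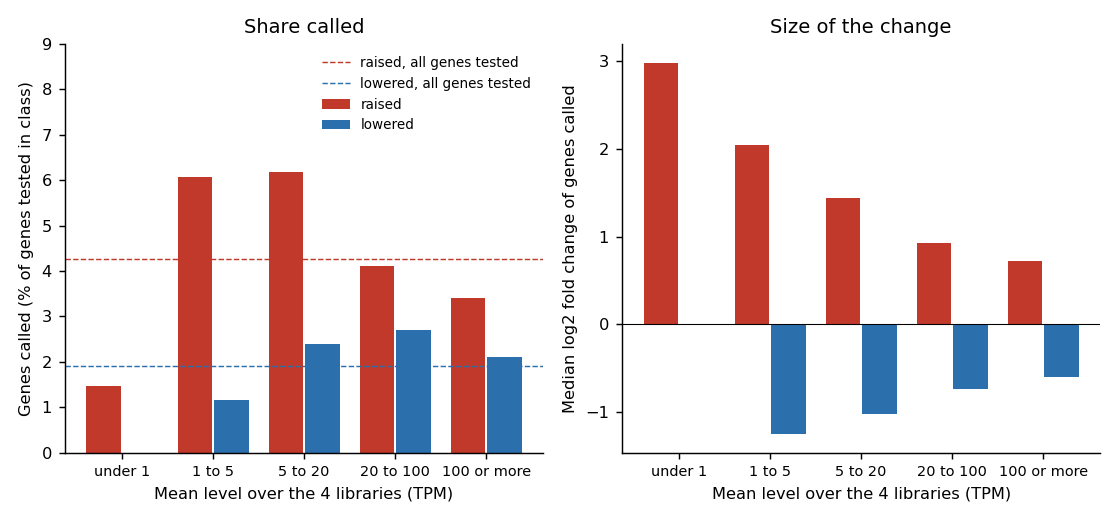
The left panel gives the percentage of genes tested that were upregulated (red) or downregulated (blue) in 5 classes of mean level, with dashed lines at the 4.26% and 1.90% of all genes, and the right panel gives the median log2 fold change of the genes called. Upregulated genes were most frequent between 1 and 20 TPM (6.08% and 6.17%), and both rises and falls were smaller at higher levels.

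The class of a gene depended on which libraries set its level. By the level in pCIG alone, 113 upregulated genes were under 1 TPM in place of 32, and 33 were at 100 TPM or more in place of 70. On this scale the share of upregulated genes fell from 4.93% and 6.89% in the 2 lowest classes to 1.62% in the highest, where 2.85% of genes were downregulated.

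Among abundant transcripts, the upregulated gene with the highest mean level was a gene of 4 exon segments on chromosome 3. Its levels were 1030 and 1265 TPM in pCIG and 2690 and 2537 TPM in MEK1ca, a log2 change of 1.17 ± 0.14 (standard error, n = 2 per condition), and the adjusted p was 0.000736 by edgeR's quasi-likelihood test. The downregulated gene with the highest mean level, on chromosome 5, was at 1129 and 1233 TPM in pCIG and at 821 and 824 TPM in MEK1ca. The log2 fold change was -0.54 ± 0.08. A larger fall among the 5 most abundant downregulated genes was that of a gene of 593 bases on chromosome 20, from 645 and 724 TPM to 288 and 286 TPM (log2 fold change -1.27 ± 0.12). The conditions did not overlap in these genes, as in every gene called.

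Of the 578 upregulated and 258 downregulated genes, 462 and 246 had at least 5 TPM in every library of the higher condition. As in all genes called, the conditions did not overlap in these. The largest rise among them was that of ENSGALG00000015947, on chromosome 2 (125754667 to 125783019 in galGal4, minus strand, 18 exon segments, 4841 exonic bases). It had 16 and 2 counts in pCIG and 1405 and 1452 in MEK1ca, which is 0.0475 ± 0.0528 TPM and 8.50 ± 0.984 TPM (SD, n = 2 each). The log2 fold change was 7.47 ± 0.47 (standard error), with an adjusted p of 1.11e-05 by edgeR's quasi-likelihood test.

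The next was ENSGALG00000016783, on chromosome 1 (133163682 to 133185156, plus strand, 13 exon segments, 3866 exonic bases). It had 136 and 109 counts in pCIG and 15714 and 14837 in MEK1ca. The level rose from 0.798 ± 0.148 TPM to 114 ± 20.5 TPM (SD, n = 2 each), so that a gene under 1 TPM became one of the 92 upregulated genes with a mean of 100 TPM or more. The log2 fold change was 7.15 ± 0.18, with an adjusted p of 9.70e-09 by the same edgeR test. Both genes passed the threshold in all 15 alternatives. The size of the rise of ENSGALG00000015947, with its few counts in pCIG, depended on single libraries: its log2 fold change was 9.58 without pCIG replicate 1 and 6.65 without pCIG replicate 2, and in the latter fit it was smaller than that of ENSGALG00000016783.

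The largest falls under the same rule were those of ENSGALG00000005413 and ENSGALG00000005975. ENSGALG00000005413 lies on chromosome 14 (6073676 to 6095679, minus strand, 2 exon segments, 1780 exonic bases) and had 18.1 and 17.2 TPM in pCIG against 3.49 and 6.84 TPM in MEK1ca. Its log2 fold change was -1.78 ± 0.27 with an adjusted p of 0.00153 by edgeR's quasi-likelihood test. ENSGALG00000005975 lies on chromosome 6 (17505026 to 17522233, plus strand, 4 exon segments, 1825 exonic bases) and had 28.3 and 21.9 TPM in pCIG against 5.28 and 9.55 TPM in MEK1ca. Its log2 fold change was -1.77 ± 0.26 with an adjusted p of 0.00157 by the same edgeR test. In both genes MEK1ca replicate 1 was the lower pool, at 196 and 304 counts, against 468 and 670 in replicate 2. Without MEK1ca replicate 1 their log2 fold changes were -1.39 and -1.41, and without MEK1ca replicate 2 they were -2.34 and -2.25.

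Neither fall held its call in each alternative. The adjusted p of ENSGALG00000005413 was 0.0134 without pCIG replicate 1 and 0.0145 without pCIG replicate 2, both by edgeR's quasi-likelihood test. Over 15 alternatives it ranged from 7.03e-09, with DESeq2, to 0.0145. That of ENSGALG00000005975 ranged from 4.77e-10, with DESeq2, to 0.0141, and with edgeR's quasi-likelihood test it missed 0.01 in the fit of the 4 libraries compared, without pCIG replicate 1 and without either library with HoxB8.

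A group of 21 genes was switched on from near zero, defined by the call, by less than 0.5 TPM in both pCIG libraries and by at least 2 TPM in both MEK1ca libraries. These levels chose the genes and are given as a description. Of 1421 genes tested that lay under 0.5 TPM in both pCIG libraries, 63 were upregulated. Over all 13582 genes tested, 578 were (4.26%). Of these 63, the 21 genes, which are 1.48% of the 1421, reached 2 TPM and the other 42 did not. The closest gene inside the limit was at 2.11 TPM in its lower MEK1ca library and the closest outside at 1.95 TPM. On the pCIG side, the closest gene inside was at 0.46 TPM in its higher library and the closest outside at 0.503 TPM. With a limit of 1 TPM in pCIG there were 52 such genes, and with 0.2 TPM there were 12. Genes silent in all 6 libraries were not tested, and some of the 1421 had enough counts only outside pCIG. The 1.48% is therefore not a share of all genes silent in pCIG.

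The 21 genes lay on 14 chromosomes and had 412 to 5803 exonic bases, and 2 of them had a single exon. They had 0 to 90 counts per library in pCIG and 34 to 2190 counts in MEK1ca, and log2 fold changes from 3.15 to 7.47 with a median of 4.76. In 8 of the 21, both MEK1ca libraries were at 5 TPM or more. The highest level was that of a gene of 8 exon segments on chromosome 23, with 0.303 and 0.229 TPM in pCIG and 24.6 and 12.5 TPM in MEK1ca. The pools agreed more closely for a gene of 5803 bases on chromosome 8, which had 0.380 and 0.382 TPM in pCIG and 11.1 and 9.81 TPM in MEK1ca. They were furthest apart, among the 3 genes with the highest level, for a single-exon gene on chromosome 3, at 0.460 and 0.221 TPM in pCIG and at 5.70 and 16.8 TPM in MEK1ca. Of 3 such genes on chromosome 26, a pair lay next to each other within 1545390 to 1557199 on the plus strand, at 2.72 and 2.11 TPM for one and 3.86 and 3.73 TPM for the other in MEK1ca.

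**Figure D3:**
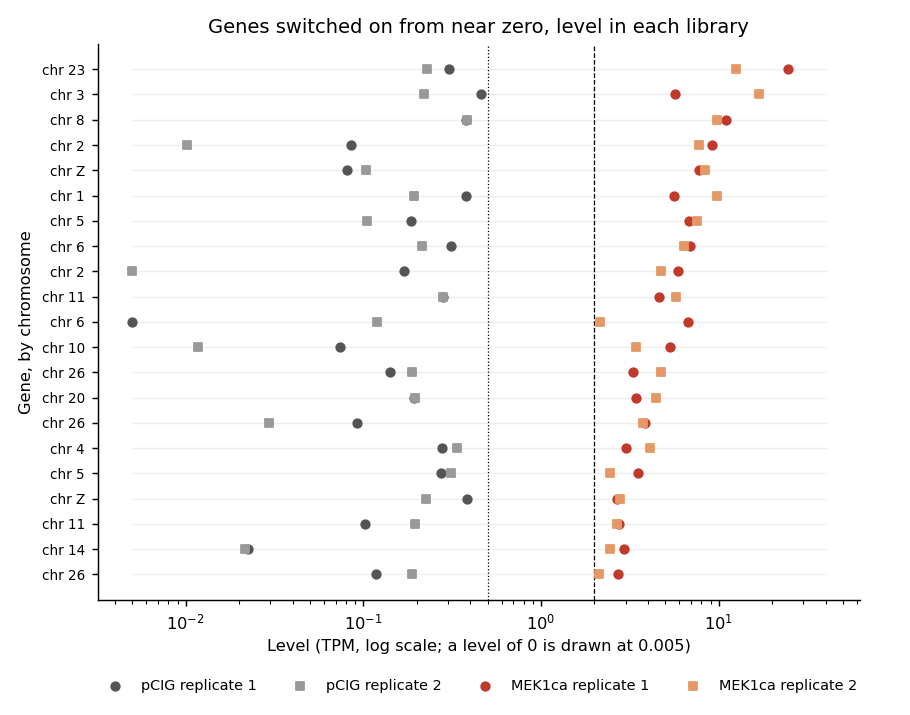
The level in each of the 4 libraries (TPM, log scale, with levels of 0 at the left end) is shown for the 21 genes switched on from near zero, named by their chromosome and ordered by mean level in MEK1ca, with the 2 limits that chose them at 0.5 TPM (dotted) and 2 TPM (dashed). MEK1ca levels ran from 2.11 to 24.6 TPM and pCIG levels from 0 to 0.46 TPM, with the widest split between MEK1ca pools on chromosomes 3 and 6.

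Of the upregulated genes, 5 had no count in either pCIG library. They had 22 to 219 counts in the MEK1ca libraries, at 0.107 to 3.50 TPM. Against an assumed floor of 3 counts in each pCIG library, the mean of the MEK1ca libraries was 9.23-fold to 67.7-fold higher in these 5 genes. These are ratios of a mean to that floor, and a single MEK1ca library can lie below them. On the log2 scale these ratios, like the fitted changes, all lie above the median of the upregulated genes, which could therefore not move from 1.31. With the ratios, 27 upregulated genes had a log2 fold change above 5, against 31 with the fitted changes.

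No gene was switched off to near zero by the mirror rule. Of 10374 genes tested at 2 TPM or more in both pCIG libraries, 0 were under 0.5 TPM in both MEK1ca libraries, whatever their p, while 22 genes met the levels of the switched-on rule without regard to the call. The lowest level that a downregulated gene reached, taking its higher MEK1ca library, was 0.627 TPM. The absence of switched-off genes did not hold without MEK1ca replicate 1 or without replicate 2. There the rule rests on the 1 MEK1ca library left and is easier to meet.

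Calls were spread over the genome. On chromosomes 1 to 5, 292 of 6053 genes tested were upregulated (4.82%) and 116 downregulated (1.92%). On chromosomes 6 to 10 the shares were 4.62% and 1.93% of 2275 genes. On the smaller chromosomes, 11 to 28, they were 3.32% and 1.70% of 4584 genes. The share of upregulated genes was thus lower on the small chromosomes, and it was also lower there without any 1 library: 1.40% to 2.97% on chromosomes 11 to 28, against 2.16% to 4.76% on chromosomes 1 to 5.

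Among the chromosomes with at least 50 genes tested, chromosome 6 had the highest share of upregulated genes, 36 of 486 (7.41%), followed by chromosome 13 with 19 of 313 (6.07%). Without 1 library, the share on chromosome 6 was lower or unchanged, and the share over all genes tested was lower as well. The share on chromosome 6 was above that of all genes in each of these fits. In the full fit, chromosome 25 had the lowest share, 1 of 140 (0.71%). The highest shares of downregulated genes were on chromosome 24, 8 of 163 (4.91%), and chromosome 26, 9 of 223 (4.04%). Downregulated genes outnumbered upregulated ones on chromosomes 10 (11 against 8), 23 (6 against 5), 24 (8 against 5) and 25 (2 against 1), and these counts are too small to rank the chromosomes.

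On the sex chromosome Z, 29 of 662 genes were upregulated (4.38%) and 20 downregulated (3.02%). The median log2 fold change of its genes was -0.08, and 59.7% of them were lower in MEK1ca, against 50.7% of the other genes. Genes of Z took 39090 and 37497 CPM (counts scaled to the library's total) in pCIG and 36811 and 35955 in MEK1ca. The female-specific chromosome W differed the other way, with 86.2 and 106 CPM in pCIG and 123 and 143 in MEK1ca. Pools of 1 condition could lie as far apart: the MEK1ca+HoxB8 pools had 125 and 58.1 CPM for W and 35398 and 39919 CPM for Z. Of the 8 genes of W tested, 7 were higher in MEK1ca and 6 did so without overlap (30.2% of all genes tested did so), with a median log2 fold change of 0.52, but none was called by edgeR's quasi-likelihood test, none had an unadjusted p under 0.05 and DESeq2 called 0. The part of the sexes of the pooled embryos in the values of Z was not tested. Without 1 library, 0.45% to 1.81% of Z genes were downregulated, against 0.49% to 1.86% of all genes tested.

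Longer genes were called upregulated more often. In 5 classes of equal size by exonic length, with limits at 1125, 1780, 2640 and 4024 bases, the share of upregulated genes was 3.16%, 2.69%, 3.76%, 4.90% and 6.77% from the shortest to the longest. The share of downregulated genes was 1.07%, 1.69%, 1.95%, 2.32% and 2.47%. The median upregulated gene changed less in the longest class (log2 fold change 1.22) than in the shortest (1.60).

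By genomic span, from the first to the last base of a gene with its introns, the share of upregulated genes was 2.87%, 3.79%, 2.98% and 3.94% in the 4 classes up to 41056 bases and 7.69% in the class of longest genes, 209 of 2717. For downregulated genes it was 1.44%, 1.18%, 1.80%, 2.10% and 2.98%. Longer transcripts hold more reads: the median count per library was 276 in the class of shortest exonic length and 3711 in the longest. Among genes with 1000 to 10000 counts per library, where depth differs less, the share of upregulated genes was 3.12% in the shortest and 7.25% in the longest class by exonic length, and 2.73% and 7.66% by span. Level differed between these classes, with medians of 88.3 and 19.8 TPM by exonic length and 68.5 and 24.7 TPM by span. The part of level in these shares was not tested. The share of downregulated genes there was 1.82%, 2.71%, 2.69%, 3.23% and 2.60% by exonic length, without a steady rise. By span it was 2.73%, 1.92%, 2.15% and 2.75% in the 4 shorter classes. It was highest in the class of longest span, with 52 of 1370 genes downregulated. Without 1 library, the longest class by span had between 3.46% and 7.77% of genes upregulated and the shortest between 1.44% and 2.72%, and in each of the 4 fits the longest had more.

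**Figure D4:**
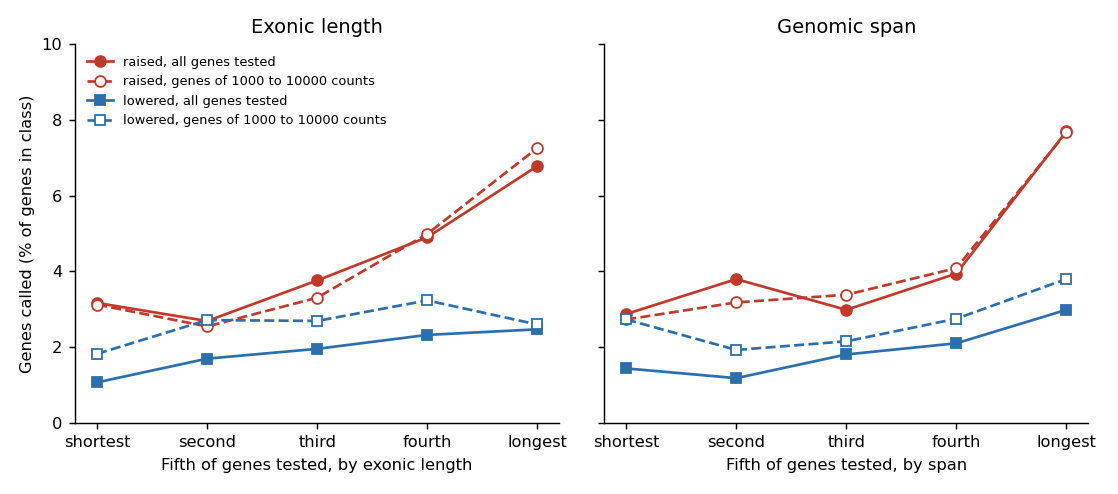
The percentage of genes upregulated (red) and downregulated (blue) is given for 5 classes of equal size from the shortest to the longest genes, by exonic length (left) and by genomic span (right), for all genes tested (filled) and for genes of 1000 to 10000 mean counts per library (open). The share of upregulated genes was highest in the longest class in both panels, 6.77% and 7.69% of all genes tested.

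Some of the upregulated genes were neighbours. Of the 578 upregulated genes, 69 (11.9%) were followed on the chromosome by another upregulated gene among the genes tested, while 4.26% of all next genes were upregulated. Of 257 downregulated genes with a next gene, 15 (5.84%) were followed by another downregulated gene, against 1.90% of all next genes. An upregulated gene was followed by a downregulated one in 9 cases, and the reverse occurred in 6. Without 1 library, between 8.05% and 13.4% of upregulated genes were followed by another, while 1.93% to 4.12% of all genes were upregulated. The neighbours that were both upregulated lay on the same strand in 44 of 69 pairs (63.8%, against 48.4% of all 13552 pairs). Their median gap was 25.7 kb (7.24 kb for all pairs). Of the 69 pairs, 1 overlapped, against 711 of all 13552 pairs.

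In all, 48 runs held 2 upregulated genes, 5 held 3, 1 held 4 and 2 held 5. Downregulated genes formed 11 runs of 2 and 2 runs of 3. The longest runs were described after their values were seen.

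A run of 5 on chromosome 1 covered 132936573 to 133252726, all on the plus strand. Its genes had log2 fold changes of 0.55, 2.98, 7.15, 3.77 and 4.78 in genomic order, and the strongest is ENSGALG00000016783. The first gene of the run was already expressed in pCIG (78.9 and 81.3 TPM) and reached 114 and 123 TPM in MEK1ca. The other 4 genes were each below 1 TPM in both pCIG libraries. In MEK1ca the gene after ENSGALG00000016783 reached 8.16 and 7.01 TPM, the last of the run 1.94 and 1.93 TPM and the one before ENSGALG00000016783 only 0.645 and 1.02 TPM. The gaps between the 5 genes were 5.40 to 44.7 kb.

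The run of 5 on chromosome 4 covered 11728003 to 12097974, again all on the plus strand, with log2 fold changes of 1.30, 2.72, 5.01, 3.76 and 1.59. Its middle gene rose from 11.8 and 9.14 TPM in pCIG to 414 and 265 TPM in MEK1ca, and the gene after it from 12.2 and 10.7 TPM to 201 and 112 TPM. These genes lay 7.36 kb apart and were expressed in pCIG. The change was largest in the middle of the run and smaller at both ends, and replicate 1 was the higher MEK1ca pool for each of the 5 genes.

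The run of 4 on chromosome 6 covered 31278697 to 31561609 on the minus strand, with log2 fold changes of 2.65, 3.49, 1.31 and 5.02. Its second gene rose from 27.3 and 25.0 TPM to 359 and 235 TPM, and its last, with 621 exonic bases, from 7.89 and 6.46 TPM to 284 and 187 TPM. The first gene stayed low, at 0.229 and 0.363 TPM in pCIG and 1.76 and 2.03 TPM in MEK1ca.

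**Figure D5:**
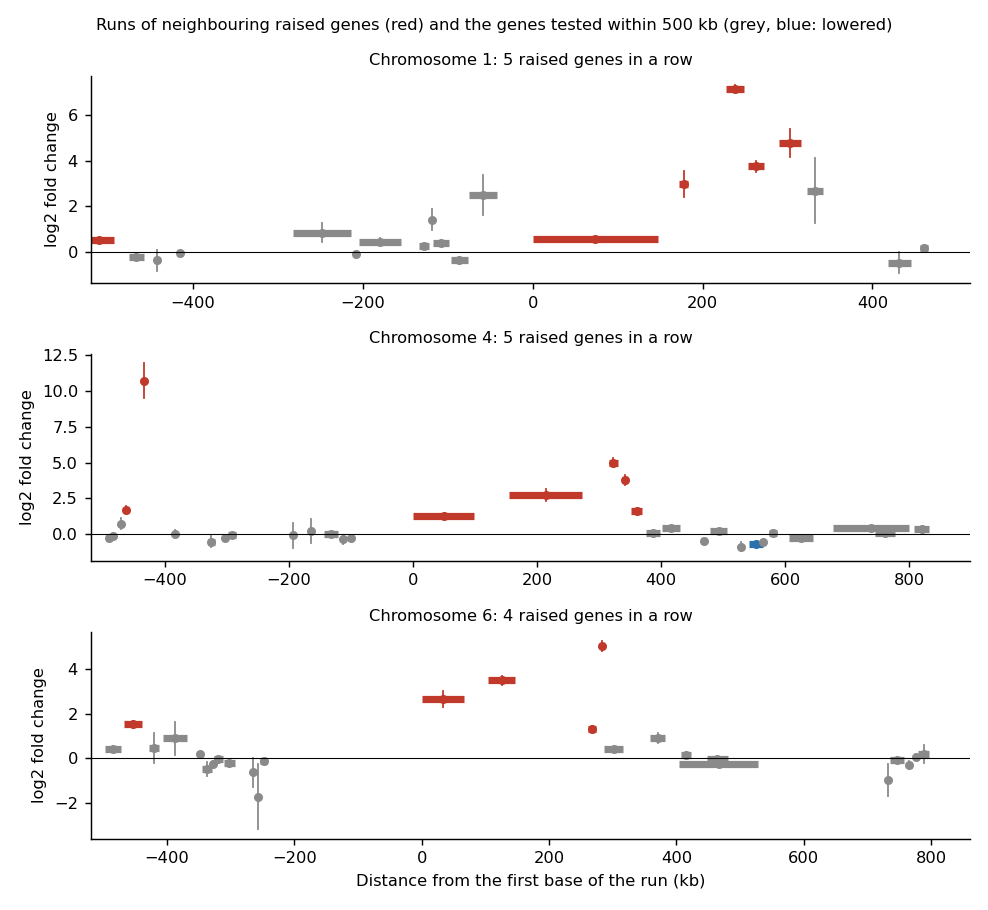
The log2 fold change of MEK1ca over pCIG (horizontal bars, from the start to the end of each gene, with a point at the middle and the standard error as a vertical line) is plotted against the distance in kb from the first base of the 3 longest runs of upregulated genes, with the genes tested within 500 kb on each side. Upregulated genes are red, downregulated blue and others grey. The changes within the runs, up to 7.15, 5.01 and 5.02, stand beside grey genes that are mostly near 0. The grey genes next to the run on chromosome 1 are exceptions with wide errors, at 2.51 ± 0.87 before it and 2.68 ± 1.43 after it. The highest point of the chromosome 4 panel, left of the run, is 1 of the 5 genes with no count in pCIG, whose fitted change is no measure of size.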

How the data were processed

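Per the labels and the paper's methods, the authors amplified cDNA linearly, sequenced poly-A RNA and, per the submitters' processing notes, used Subread for the alignment to galGal4 and featureCounts for the counts. The deposited counts per gene are raw, with exonic length and exon positions. Program versions, the strand setting and what was done with multiply aligned reads are not given in the sources used here, so that genes with near-identical copies or overlapping genes are uncertain. The authors' tables of their own comparisons (base mean, log2 fold change, standard error, Wald statistic, p-value and adjusted p) were not used. The libraries with HoxB8 alone were not analysed here.

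Counts of the 6 libraries were fitted in R 4.3.3 with edgeR 4.0.16 (filterByExpr by group, TMM factors from 0.964 to 1.05, robust quasi-likelihood fit, contrast of MEK1ca and pCIG), with Benjamini-Hochberg adjustment over 13582 genes and a threshold of 0.01, the stricter of the false discovery rates the paper uses. The coefficient of variation common to all genes was 0.126 (biological). The procedure was tested on simulated data. Standard errors were derived as the size of the change divided by the root of its F statistic. TPM were computed from the counts and exonic lengths over all 17108 genes. PCR and linear amplification without molecular identifiers mean that counts are not independent molecules. Replicates are separate RNA samples of pooled embryos. Classes of level, chromosome and length were described without a test. The genes named are the 2 with the largest rise and the 2 with the largest fall at an adjusted p of 0.01 or less, with at least 5 TPM in every library of the higher condition and no overlap. Lists of pathway and marker genes could not be matched, since no symbols were at hand. The comparison, lists and rules were chosen with earlier results of these data known. Tables were made in Python 3.11.15 with numpy 2.4.6 and pandas 2.3.3. Alternatives were DESeq2 1.42.0 and its size factors, library size alone, other filters, a fit of 4 libraries, a replicate block, a threshold of 0.05, each library left out, halved counts and other limits for near zero.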

Additional observations from a re-analysis of the deposited data

How the results depend on the processing

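DESeq2 called 1547 genes (926 upregulated, 621 downregulated) and a threshold of 0.05 gave 1742 (1023 and 719), against 836 (578 and 258). Leaving out 1 of the 6 libraries gave 329 to 812 deregulated, 262 to 559 upregulated, 67 to 266 downregulated, 21 to 28 switched-on and 0 to 1 switched-off genes. A limit of 1 TPM for near zero gave 52 switched-on genes and 1 switched off, and a limit of 0.2 TPM gave 12 and 0. The other settings left these counts within 1.5 times: DESeq2's size factors, library size alone, both other filters on low counts, the fit of the 4 libraries and halved counts of MEK1ca replicate 2. Upregulated genes made up 59.9% of the calls with DESeq2 and 58.7% at 0.05, against 65.8% to 69.6% with these settings. No named gene changed direction. The cause of these differences was not tested, apart from the threshold, whose looser value admits more genes. Fits that leave out 1 library also hold fewer libraries, and the part of this in their counts was not tested. Without 1 pCIG or MEK1ca library, the rules for switched-on and switched-off genes rest on the 1 library left in that condition. They are then easier to meet.

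With the replicate number as a block, 606 genes were upregulated and 315 downregulated, and 555 and 240 of these were among the calls above. Replicate numbers were not taken to pair the libraries: deviations of pools of the same number correlated at 0.128 (pCIG and MEK1ca), -0.113 (pCIG and MEK1ca+HoxB8) and -0.027 (MEK1ca and MEK1ca+HoxB8) across genes. The counts in lists of named genes were not run, for want of symbols. Genes under 1 TPM, at a median of 18.5 counts, limit what could be called: the smallest change called there was 1.41 on the log2 scale. The share of neighbours without each library was chosen after seeing the data.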

Other observations

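Genes by number of exon segments, which the comparison above did not use, had different shares of upregulated genes, lowest with a single segment and highest above 20. The share was 2.70% of 816 genes with a single exon segment, 4.41% of 726 genes with 2 and 4.41% of 2583 genes with 3 to 5. It was 3.95% of 3846 genes with 6 to 10, 3.82% of 3748 genes with 11 to 20 and 6.17% of 1863 genes with more than 20. Downregulated genes made up 1.10%, 2.62%, 2.25%, 1.98%, 1.60% and 1.93% of the same classes. Depth differed as well: the median count per library was 70.1 with a single segment and 3823 above 20. Without regard to the calls, 11.3% of genes with a single segment and 6.01% of those above 20 were at least 2-fold higher. At least 2-fold lower were 7.48% and 2.09%. The part of depth in the shares called was not tested.

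Genes whose span overlaps that of another gene of the annotation made up 15.3% of all genes tested (2075 of 13582), 10.7% of the upregulated genes (62 of 578) and 15.1% of the downregulated genes (39 of 258). Whether reads were assigned by strand is not given in the sources used here, so reads of these 62 and 39 genes may belong to either partner.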
